A study of Mus musculus with 5 samples.

Results

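The collagen receptor genes of the mandibular condyle cartilage of Ddr1 knockout mice were compared with those of wild-type mice. The group held 10 genes, Ddr1, Ddr2, Itga1, Itga2, Itga10, Itga11, Itgb1, Mrc2, Lair1 and Cd44. They were chosen by name, and each was represented by the row of the array table whose annotation gave that symbol alone. All 10 were measured, each by 1 row, out of 19938 genes in all. The tissue, the joint head of the lower jaw, came from mice of strain 129/Sv, 2 without the receptor Ddr1 (labelled DDR-1-KO, knockout 2 and 5) and 3 wild type (wild type 3, 4 and 6). The labels give a mouse for each array and no age, sex or treatment, and they do not say which part of the Ddr1 gene is missing or in which cells. The arrays carry 2 dates in their names. Knockout 2 and wild type 3 form run 1, and knockout 5 and wild types 4 and 6 form run 2. What was done on those dates is not given.

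Cells sense the collagens around them through several families of surface proteins. The discoidin domain receptors Ddr1 and Ddr2 are tyrosine kinases that are switched on by triple-helical collagen. The collagen-binding integrins each pair 1 alpha chain, from Itga1, Itga2, Itga10 or Itga11, with the shared beta chain Itgb1, and link collagen to the actin cytoskeleton. Itga10 is known as the collagen-binding chain of chondrocytes and Itga11 as that of fibroblasts and other mesenchymal cells. Mrc2 (Endo180) takes up collagen for degradation, Lair1 is an inhibitory collagen receptor of immune cells, and Cd44 binds hyaluronan and also collagen.

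Levels are log2 RMA signals, the authors' summary of all probes of a transcript on a log2 scale. A change is the mean of the knockout mice minus that of the wild-type mice, also in log2 units. Signals of different genes come from different probes, so levels are compared between arrays and not between genes. A gene was called where limma's p, adjusted over all 19938 genes, was under 0.05. Correlations across genes were 0.803 between the knockout arrays, 0.814 to 0.927 between a knockout and a wild-type array and 0.984 to 0.993 among wild-type arrays. The standard deviation over the genes of an array was 0.80 and 0.91 in knockout 2 and 5, against 0.99 to 1.02 in wild type. When genes above the median level were fitted alone, 55 were called higher and 391 lower. The values held many exact ties. All 3 wild-type mice had 1 value in 39.1% of genes and all 5 mice in 6.26%, and between 27.1% and 53.6% of genes on an array shared their exact value with another gene of that array. For such genes a wild-type spread of 0 is not a measure of the spread between mice. As markers of the labelled tissue, all 13 chondrocyte genes looked up had a row. Among them was Col2a1, the main cartilage collagen, with 7.07 and 6.96 in knockout 2 and 5, against 7.27 in wild type. In wild type Matn1 had 4.44, below the array medians of 5.16 to 5.17 over the tested genes. Matn3 and Hapln1 lay near those medians in wild type, and the other markers above them. Whether a signal exceeded the background of the array was not called here.

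Of the 10 receptors 1 rose in knockout cartilage, Itga11, and 9 did not pass the test. Among all genes 3.73% were called, 1.55% as higher and 2.18% as lower. No receptor was called lower with limma, and at an unadjusted p under 0.05 there were 2 receptors, Itga11 and Itga10. The change was above 0 for 3 receptors, below 0 for 4 and exactly 0 for 3, with a median of 0, beside a median of -0.0083 over all genes. As deposited, the groups did not overlap for 4 receptors (Itga11 higher; Ddr1, Itga10 and Mrc2 lower), while 31.5% of all genes had groups that did not overlap. After cyclic loess, a smoothing of the arrays against each other, 8 changes were above 0 and 2 below, with a median of 0.072. The median over all genes was then 0.013. On that scale both knockout mice lay above wild type for Ddr2, Itga2, Itga11, Mrc2, Lair1 and Cd44, and below it for Itga10. The share of all genes without overlap was not taken there. The counts that follow are of the deposited values. Knockout 2 lay outside the wild-type range for 7 receptors, where 70.1% of all genes did so, and knockout 5 for 4 receptors, against 62.6% of all genes.

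**Figure D1:**
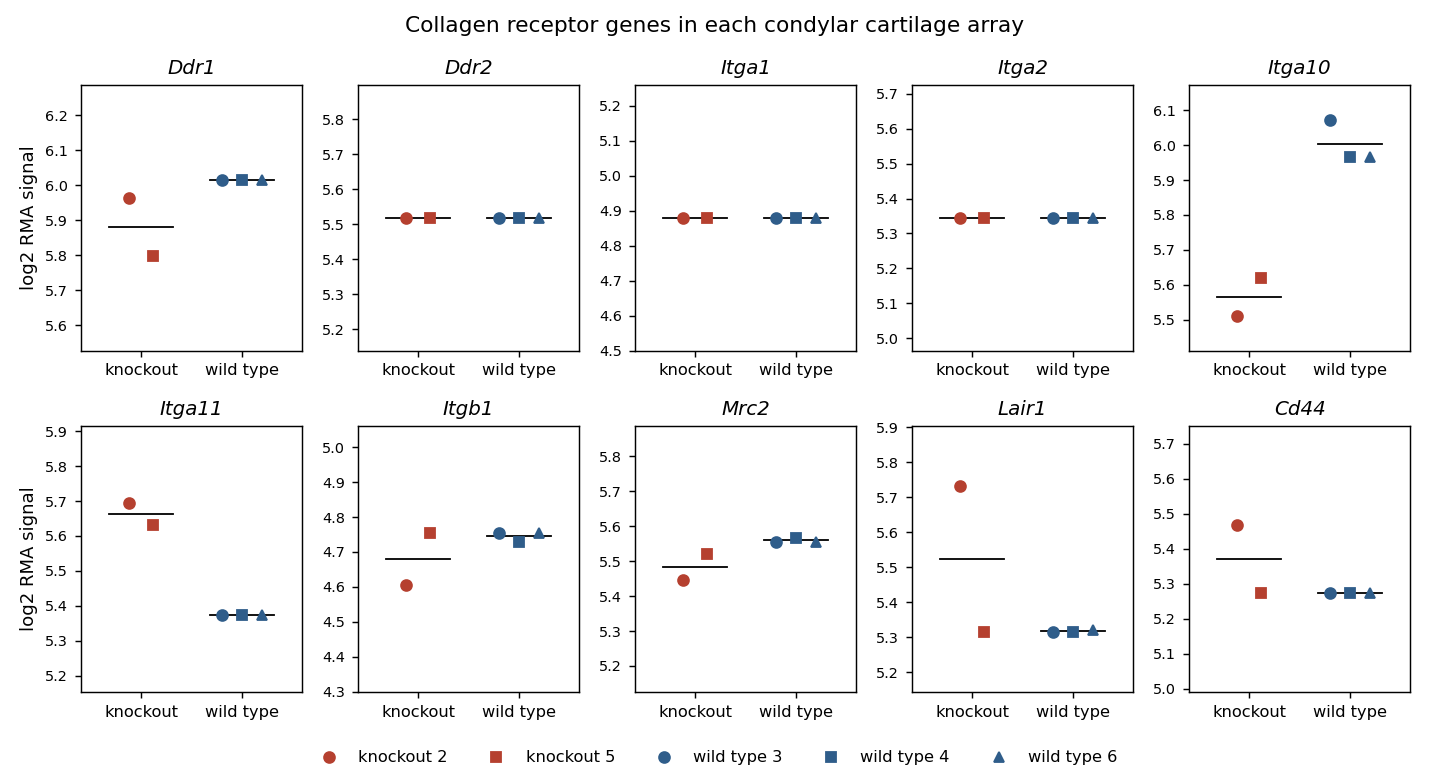
The log2 RMA signal of each collagen receptor gene, with 1 point per array, knockout mice on the left and wild-type mice on the right of each panel, lines at the group means and an axis of the same length in every panel. Ddr2, Itga1 and Itga2 have 1 value on all 5 arrays, Itga10 is lower and Itga11 higher in both knockout mice, and Lair1 and Cd44 are higher in knockout 2 alone.

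The integrin alpha chains Itga10 and Itga11 had the lowest and the highest change among the receptors. Their sequences upstream of the start are shown because these 2 genes carry the contrast described next. Each run is the 250 bases before the RefSeq start in the mouse build GRCm38.p6, 5′ to 3′ on the plus strand, with every CG dinucleotide in capitals. The Itga10 stretch lies at chr3:96645334-96645583 and the Itga11 stretch at chr9:62677605-62677854.
Itga10: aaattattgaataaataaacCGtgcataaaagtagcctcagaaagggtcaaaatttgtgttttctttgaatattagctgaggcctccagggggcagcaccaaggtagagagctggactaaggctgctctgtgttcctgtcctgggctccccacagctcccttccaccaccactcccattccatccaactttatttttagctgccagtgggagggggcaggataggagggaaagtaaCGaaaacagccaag
Itga11: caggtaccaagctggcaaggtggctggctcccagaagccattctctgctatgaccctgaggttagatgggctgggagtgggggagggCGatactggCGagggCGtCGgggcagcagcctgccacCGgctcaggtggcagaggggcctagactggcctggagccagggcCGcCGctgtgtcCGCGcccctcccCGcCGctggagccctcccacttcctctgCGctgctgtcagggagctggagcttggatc
The Itga10 stretch holds 2 CG dinucleotides and the Itga11 stretch 12, where the median over 32851 such stretches of mouse genes was 6. Of 4 motifs searched on both strands, neither stretch held a match to the Sp1 box GGGCGG, the TATA box TATAAA, the Sox core ACAAT or the Smad box CAGAC. These letters occur in 32.7%, 12.4%, 27.7% and 42.2% of all stretches, in that order. Of the receptors, 9 had an entry in the table of starts.

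Itga10 pairs with Itgb1 as a receptor for collagen II in cartilage. Knockout 2 had a level of 5.51 and knockout 5 one of 5.62, whereas wild type 3 had 6.07 and wild types 4 and 6 had 5.97 each. Both knockout mice lay below every wild-type mouse, and the gap between the groups was wider than the spread within either. The change was -0.44 (SE 0.058, 95% interval -0.60 to -0.27, limma's adjusted p = 0.0553), a level 0.739 times that of wild type, and it did not pass the threshold. It was -0.56 within run 1 and -0.35 within run 2, and the fit that blocks on the run gave adjusted p = 0.123. Without knockout 5 it passed, at -0.49 (adjusted p = 0.0261, where limma can take a spread from wild type alone), and it did not pass without knockout 2 (-0.38, adjusted p = 0.0535). Without wild type 3, 4 or 6 the adjusted p was 0.180, 0.245 and 0.250. Cyclic loess, a smoothing of the arrays against each other, left -0.28 (adjusted p = 0.119), a change smaller by over 1.5 times.

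Chondrocyte markers were lower along with Itga10 in the values as deposited. All 13 had a change below 0, with a median of -0.30, and 2 of them fell, Sox9 and Col9a3, where 2.18% of all genes were called lower. After cyclic loess 9 were below 0 and 4 above it, among them Col2a1, the median was -0.15, and none was called (adjusted p = 0.116 for Sox9 and 0.181 for Col9a3). With the run as a block Sox9 had adjusted p = 0.0603 and Col9a3 0.0797. Their unlogged signals summed to 766 and 905 in knockout 2 and 5, whereas wild-type sums ran from 1042 to 1058. Itga10 minus the mean log2 level of these markers was -0.063 and -0.30 in knockout 2 and 5, against 0.0037 in wild type 3, -0.11 in wild type 4 and -0.093 in wild type 6. On that scale knockout 2 lay inside the wild-type range and knockout 5 below it. The part of the markers in the change of Itga10 was not tested, and in whole tissue fewer cells of a type and less RNA per cell cannot be told apart.

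Itga11, the fibroblast chain, moved the other way. Its level was 5.69 and 5.63 in knockout 2 and 5, and 5.37 in all 3 wild-type mice, so that both knockout mice lay above all wild-type mice. The change was 0.29 (SE 0.027, 95% interval 0.21 to 0.37, limma's adjusted p = 0.0323), a level 1.22 times that of wild type. The wild-type values were identical, so the error rests on the knockout arrays and on limma's moderation across genes. Run 1 gave 0.32, run 2 gave 0.26, and the fit that blocks on the run gave 0.28 (adjusted p = 0.0766). Without wild type 3, 4 or 6 it stayed at 0.29 with adjusted p = 0.163, 0.198 and 0.215, and cyclic loess gave 0.41 with adjusted p = 0.0995. An exact permutation test over the 10 splits of 2 against 3 arrays gave p = 0.1 for Itga11 and for Itga10 on the absolute difference, and p = 0.2 where the one-sided share is doubled. Both are the smallest values these forms can give, and Ddr1 and Mrc2 reached them too.

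Genes of the fibrous layer that covers the condyle were not higher in knockout as a sum. Of 10 measured, none passed in limma, with 2 at an unadjusted p under 0.05, and their unlogged signals summed to 493 and 648 in knockout 2 and 5, whereas wild-type sums ran from 664 to 740. Their mean log2 level was 5.47 and 5.81 in knockout 2 and 5, against 5.70 to 5.93 in wild type. After cyclic loess 5 of the 10 had a change above 0 and 5 below, with a median of -0.0043. Itga11 minus the mean log2 level of these genes was 0.22 and -0.18 in knockout 2 and 5, and it ran from -0.56 to -0.33 in wild type. The part of these genes in the change of Itga11 was not tested.

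The difference between Itga11 and Itga10 was also taken within each array, where a shift of a whole array cancels. A difference in spread between arrays does not cancel. The standard deviation over genes was 0.80 and 0.91 in knockout 2 and 5, against 0.99 to 1.02 in wild type. The size of the difference between the 2 chains depends on the probes, and only its change between arrays can be read. Knockout 2 gave 0.18 and knockout 5 gave 0.0089, against -0.70 in wild type 3 and -0.59 in each of wild types 4 and 6. The groups stood apart by more than their spread, with 0.72 between the means, 0.88 within run 1 and 0.60 within run 2. The shared partner Itgb1, at 4.60 to 4.75, lay below the median of every array (5.05 to 5.17 over the tested genes). Against Itgb1, Itga10 stood at 0.91 and 0.87 in knockout 2 and 5 and at 1.21 to 1.32 in wild type. Itga11 minus Itgb1 was 1.09 and 0.88 in knockout 2 and 5 and 0.62 to 0.65 in wild type. These pairs were picked with the changes known, so they are given without a test.

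**Figure D2:**
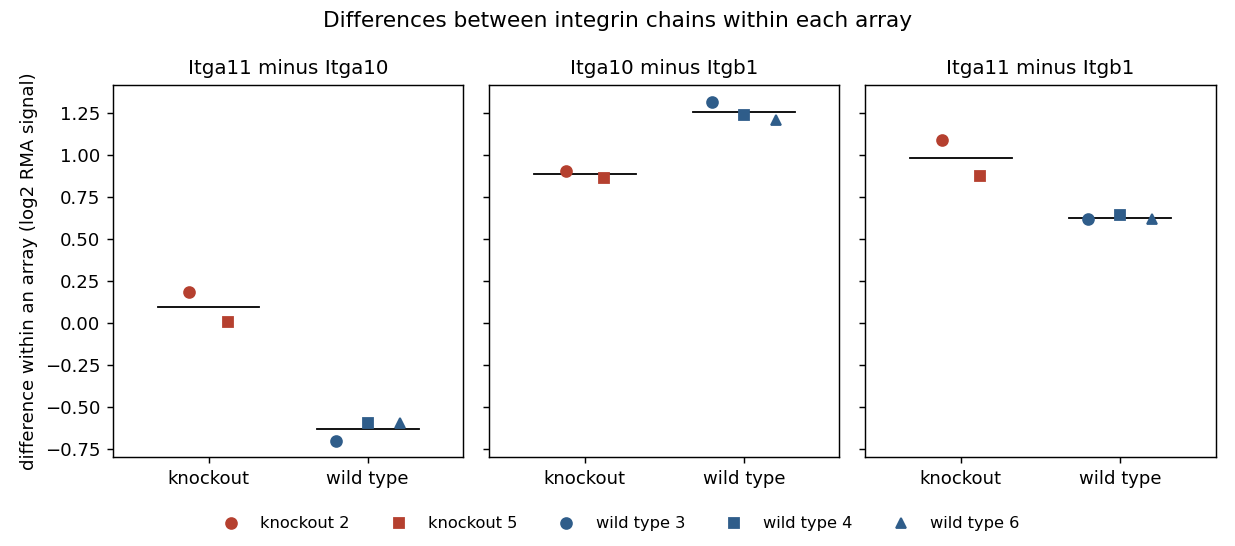
Differences in log2 RMA signal between 2 integrin chains within each array, with 1 point per array, knockout mice on the left and wild-type mice on the right of each panel and lines at the group means. Itga11 minus Itga10 is 0.0089 and 0.18 in knockout mice and between -0.70 and -0.59 in wild-type mice, and no panel shows an overlap of the groups.

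Ddr1, the receptor labelled as knocked out, had a level of 5.96 and 5.80 in knockout 2 and 5, and of 6.02 in all wild-type mice. Both knockout mice were lower, by 0.053 within run 1 and by 0.22 within run 2. The change of -0.14 (95% interval -0.30 to 0.032, limma's adjusted p = 0.377) did not pass the test, and it reached adjusted p = 1.4e-06 without knockout 2 and adjusted p = 1.7e-05 without knockout 5, where the spread comes from identical wild-type values. It turned to 0.035 after cyclic loess, where knockout 2 had 6.14 and knockout 5 had 5.80, beside wild-type levels of 5.93 to 5.95. On that scale the knockout mice lay on either side of wild type. The positions of the row's probes were not used, and the labels do not say which part of the gene is missing. The level was therefore not used to check the genotype labels. The RefSeq table lists 4 starts for Ddr1.

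Ddr2, the second discoidin domain receptor, a kinase known for binding fibrillar collagens, was at 5.52 on all 5 arrays, with a 95% interval of the change from -0.044 to 0.044 that rests on moderation alone. That exact value was also held by 68 other genes on at least 1 array. The table therefore gave Ddr2 no spread by which a change could be judged. Once the arrays were put on another scale the change became 0.12 under cyclic loess (adjusted p = 0.361). It was 0.14 with arrays standardised to a common median and spread (adjusted p = 0.348).

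Itga1 and Itga2, the alpha chains of the other 2 collagen-binding integrins, showed the same pattern of 1 value. Itga1, known from smooth muscle and other mesenchymal cells, was at 4.88 on every array, a value shared with 104 other genes. Itga2, the collagen receptor chain of platelets and epithelia, was at 5.34 on every array, a value shared with 4 other genes. With Ddr2 they made 3 receptors of 10 with all values identical, where 6.26% of all genes had this. After cyclic loess their changes were 0.016 for Itga1 and 0.098 for Itga2, and neither passed.

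Itgb1, the beta chain that every collagen-binding integrin needs, had a level of 4.60 in knockout 2 and of 4.75 in knockout 5, beside 4.75 in wild types 3 and 6 and 4.73 in wild type 4. Knockout 5 lay within the wild-type range and knockout 2 alone below it. The change was -0.066 (95% interval -0.22 to 0.089, limma's adjusted p = 0.444), -0.15 within run 1 and 0.014 within run 2. Without knockout 2 its sign turned, to 0.0091, and without knockout 5 it was -0.14.

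Mrc2, the uptake receptor, had levels of 5.45 and 5.52 in knockout 2 and 5, against 5.56, 5.57 and 5.56 in wild types 3, 4 and 6. Both knockout mice were lower, and the change of -0.077 (95% interval -0.16 to 0.0091, limma's adjusted p = 0.328) did not pass. It was -0.11 within run 1 and -0.041 within run 2, -0.11 without knockout 5 and -0.040 without knockout 2, and turned to 0.047 after cyclic loess.

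Lair1, the immune cell receptor, had levels of 5.73 and 5.32 in knockout 2 and 5, beside 5.32 in all wild-type mice. In the deposited values only knockout 2 stood apart, and the gap of 0.42 between the knockout arrays was the widest among the receptors. The change was 0.21 (95% interval -0.20 to 0.61, limma's adjusted p = 0.399), 0.42 within run 1 and -0.0023 within run 2. Without knockout 5 it was 0.41, and without knockout 2 its sign turned, to -0.0015. After cyclic loess Lair1 had 5.85 and 5.31 in knockout 2 and 5, beside 5.26 to 5.28 in wild type (0.31, limma's adjusted p = 0.373). Both knockout mice lay above wild type there and on the other scales tried. Macrophage and general leukocyte markers did not stand out in knockout 2, where the unlogged signals of 12 measured genes summed to 407, beside 456 in knockout 5 and 408 to 415 in wild type. Of the 12 genes 5 had a change above 0, 5 below and 2 at 0, with a median of 0, and none was called (1 at an unadjusted p under 0.05). That 1, Ptprc (CD45), the common leukocyte antigen, had 5.44 and 5.13 in knockout 2 and 5, beside wild-type levels of 4.41 to 4.77, without passing the test (adjusted p = 0.178). The 6 lymphocyte markers measured summed, unlogged, to 231 and 239 in knockout 2 and 5, beside 183 to 202 in wild type. For 7 neutrophil markers the sums were 314 and 334, beside 291 to 302. Each of these 2 lists had 5 genes above 0, with 1 lymphocyte and 2 neutrophil genes below, and none was called. The part of such cells in the level of Lair1 was not tested.

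Cd44, the hyaluronan receptor, followed the same split in the deposited values. Its levels were 5.47 and 5.27 in knockout 2 and 5 and 5.27 in all wild-type mice, with the lower value exactly the same on 4 arrays and shared with 112 other genes. The change was 0.096 (95% interval -0.096 to 0.29, limma's adjusted p = 0.399), 0.19 within run 1 and 0 within run 2. Without knockout 5 it was 0.19, with a wild-type spread of 0. After cyclic loess Cd44 had 5.58 and 5.27 in knockout 2 and 5, beside 5.22 to 5.24 in wild type (0.19, limma's adjusted p = 0.376). Both knockout mice lay above wild type there and on the other scales tried.

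**Figure D3:**
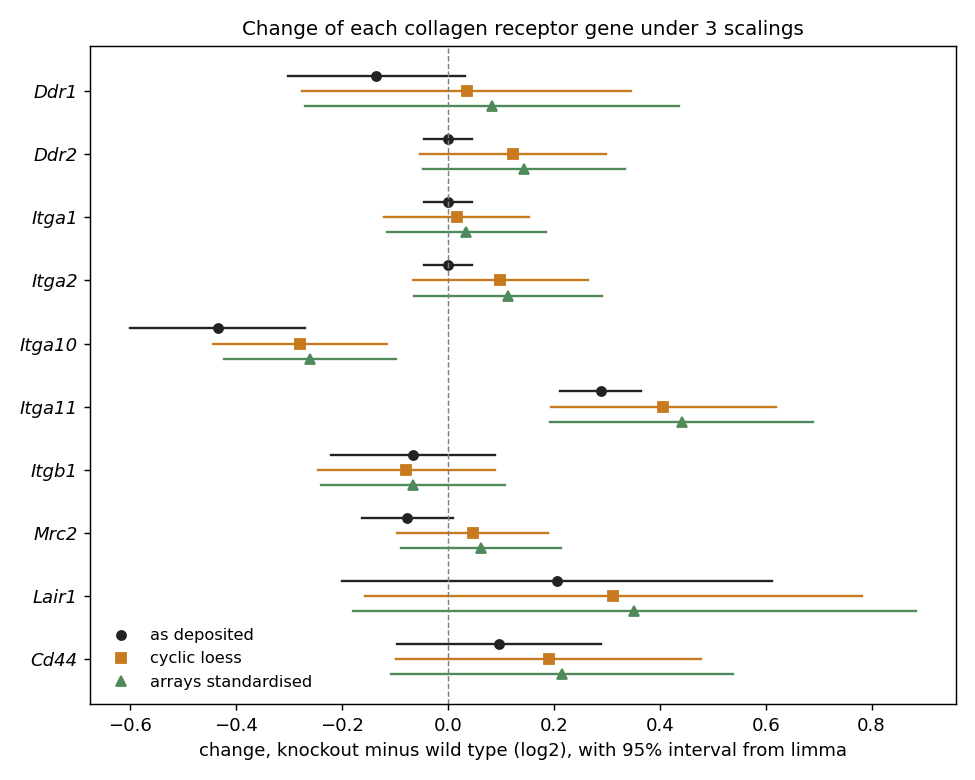
The change of each collagen receptor gene, knockout minus wild type on the log2 scale, with limma's 95% interval, for the values as deposited, for cyclic loess and for arrays standardised to a common median and spread. Itga10 stays below 0 and Itga11 above 0 with intervals clear of 0 on all 3 scales, while Ddr1 and Mrc2 change sign.

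On 4 other scales (cyclic loess, quantile normalisation of the tested genes, arrays centred on the median, and standardised arrays) Itga10 and Itga11 kept their directions. The change of Itga10 ran from -0.36 to -0.26 (adjusted p = 0.065 to 0.131) and that of Itga11 from 0.36 to 0.44 (adjusted p = 0.0783 to 0.114). None of the 10 receptors passed in limma on any of these scales, and Itga10 and Itga11 were the 2 with an unadjusted p under 0.05 on each.

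The profiles nearest to Ddr1 and Itga11 over the 5 arrays were sought by the root-mean-square difference of mean-centred log2 values, among 18688 other genes. Nearest to Ddr1 were Mgst3, a microsomal glutathione transferase, Rprd1a, a partner of RNA polymerase II, and Psmc1, an ATPase of the proteasome, at 0.0025, 0.0034 and 0.0058. A difference under 0.05 from Ddr1 was found for 624 genes. Nearest to Itga11 were Rmdn2, Emg1, a ribosome assembly factor, and Gosr1, a Golgi SNARE protein, at 0.0069, 0.0077 and 0.0094, and 99 genes lay under 0.05.

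Around the receptors, 123 genes on 7 other lists were measured, and 5 of them fell and 0 rose in limma. These were 4.07% of the lists' genes, where 2.18% of all genes were called lower and 3.73% in either direction. Of the 20 collagen genes that supply the ligands, 19 had a change below 0 and 2 fell. Col9a3, a chain of the collagen on type II fibrils, had 6.44 and 6.47 in knockout 2 and 5, against a wild-type mean of 7.06 (-0.61, adjusted p = 0.0422). Col4a1, a basement membrane chain, had 6.31 and 6.29 in knockout 2 and 5, against 6.54 in each wild-type mouse (-0.24, adjusted p = 0.0231), and its change shrank to -0.014 after cyclic loess. For both genes the knockout values lay below all wild-type values. The ligand list's median was -0.29, with -0.58 within run 1, -0.066 within run 2 and -0.10 after cyclic loess.

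The other integrin chains, for ligands such as fibronectin and laminin or for cell contacts, held 1 fall among 21. It was Itgb4, the laminin-binding beta chain of hemidesmosomes, at 5.60 in both knockout mice, against 5.75, 5.76 and 5.75 in wild types 3, 4 and 6 (-0.15, adjusted p = 0.0377). Cyclic loess left a change of -0.010, and standardised arrays one of 0.014. Of the 21 chains 16 were below 0, with a median of -0.24 that was -0.15 after cyclic loess. Among 9 further collagen-binding receptors none passed in limma, with 2 at an unadjusted p under 0.05. Adgrg6, an adhesion receptor known to bind collagen IV, had -0.49 (adjusted p = 0.156), and the scavenger receptor Cd36 had 0.46 (adjusted p = 0.0916), with a list median of -0.028.

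Downstream, 1 of 21 discoidin receptor signalling partners fell. Csk, the kinase that holds Src family kinases inactive, had 5.26 and 5.34 in knockout 2 and 5, against 6.39 in wild type 3 and 6.14 in wild types 4 and 6. Both knockout mice lay below all wild-type mice by more than the spread within either group. The change was -0.92 (SE 0.104, adjusted p = 0.0422), a level 0.528 times that of wild type, with -1.13 within run 1, -0.80 within run 2 and -0.76 after cyclic loess (adjusted p = 0.0652). The list's median was -0.098. Of 23 integrin adhesion adaptors none passed in limma, with 2 at an unadjusted p under 0.05. The actin linkers Tns1 and Actn1 had the lowest p, at -0.63 (adjusted p = 0.174) and -0.25 (adjusted p = 0.255), and the other 5 rows of Tns1 on the array ranged from -0.29 to 0.38. The adaptor list's median was -0.049.

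Of 13 genes of collagen uptake and turnover none passed in limma, with 2 at an unadjusted p under 0.05. Mmp14, the membrane collagenase, had 5.15 and 5.27 in knockout 2 and 5, against 5.40 in each wild-type mouse (-0.19, adjusted p = 0.147). Ctsk, the collagen-cleaving cathepsin of osteoclasts, had 5.01 and 5.40 in knockout 2 and 5, against 4.43 in wild type 3 and 4.66 in wild types 4 and 6 (0.62, adjusted p = 0.171). Both knockout mice lay below wild type for Mmp14 and above it for Ctsk, and the list's median was 0. Among 16 hyaluronan and Cd44 partners 1 fell, the hyaluronidase Hyal2, at 5.36 and 5.29 in knockout 2 and 5, against 5.58, 5.61 and 5.58 in wild types 3, 4 and 6 (-0.27, adjusted p = 0.0422). Cyclic loess left -0.15 (adjusted p = 0.363), and the list's median was -0.076.

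**Figure D4:**
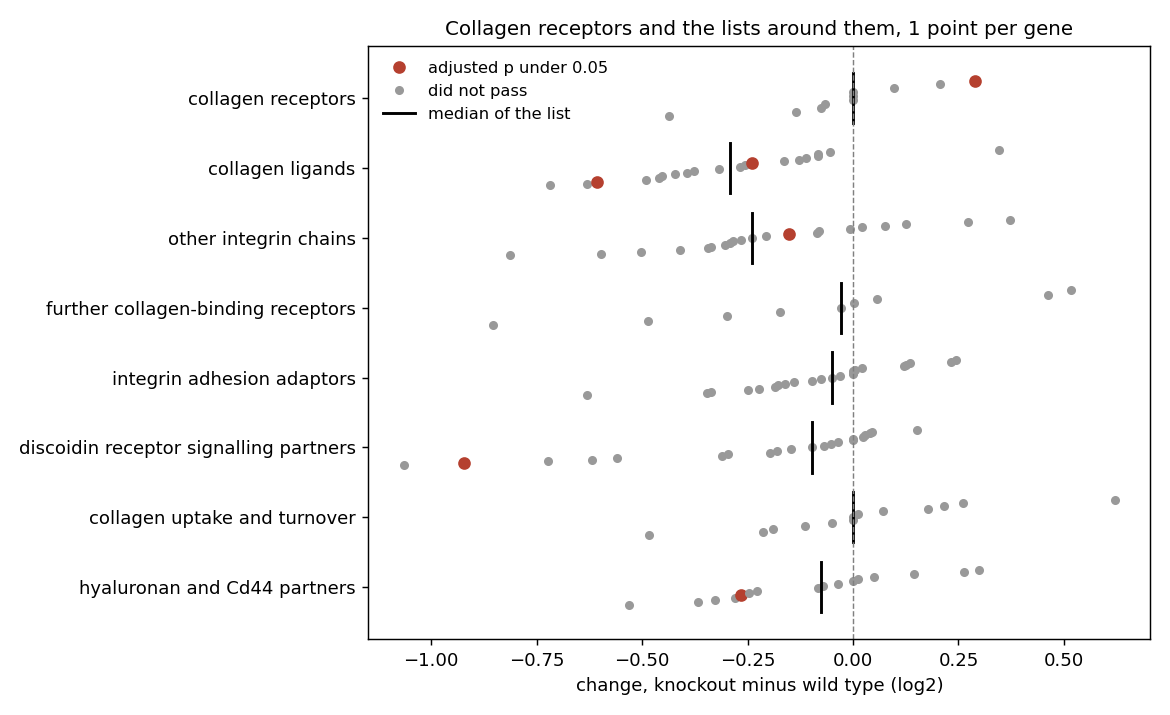
The change of each measured gene, knockout minus wild type on the log2 scale, in the 10 collagen receptors and the 7 lists around them, with 1 point per gene, filled in red where the adjusted p was under 0.05, and a bar at each list's median. Itga11 is the single red point above 0, and the medians lie between -0.29 and 0.

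The 5 falls on these lists did not pass after cyclic loess, nor in the fit that blocks on the run (adjusted p = 0.0666 to 0.0977). Without wild type 3, 4 or 6 no gene of the whole table was called, these 5 included.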

How the data were processed

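Total RNA of condylar cartilage was labelled with biotin and measured on Affymetrix mouse gene 1.0 ST arrays, per the labels. The deposited log2 values were made by the authors with Affymetrix Expression Console and RMA, per the submitters' processing notes. For these tools no version, and for the probes no build, is given in the sources used here. Of the 35556 rows of the table, 21789 had 1 gene symbol, 1621 several and 12146 none. Rows with 1 symbol were kept, with the row of highest mean for the 999 genes that had several.

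The knockout effect was fitted by limma 3.58.1 under R 4.3.3 (lmFit and eBayes, two-sided) on all 5 arrays, with Benjamini-Hochberg adjustment over 19938 genes and a threshold of 0.05. The groups share no replicate number. The p-values measure the spread between these arrays, each of its own mouse per the labels, except where values are tied.

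The members and lists were chosen with earlier results of these data known. Genes named were the 10 members, the genes of each list past the threshold or else its 2 of lowest p, and the 3 profiles nearest to Ddr1 and to each called member. Ptprc and Sox9 were named after their values were seen. The alternatives covered scaling, the array run, filters, rows, variance, array weights, ties, the threshold and each array left out. The fit was tested on simulated data. Upstream sequences came from RefSeq.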

Additional observations from a re-analysis of the deposited data

How the results depend on the processing

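As deposited, 1 receptor was called higher and 0 lower, and over all genes 309 were higher and 435 lower. The count of receptors called higher was 0 with the run as a block, under each of the 4 scalings, with all rows of the table, with array weights and among genes whose wild-type values were not all identical, a set without Itga11. At an adjusted p under 0.1 Itga10 was called lower, which made 1, and over all genes 654 were higher and 976 lower. Over all genes 0 were called in either direction with the run as a block, cyclic loess, quantile normalisation and array weights. In these fits 3829, 3919, 3761 and 1917 genes had an unadjusted p under 0.05. Standardised arrays (centred and scaled) gave 90 and 68 in place of 309 and 435, arrays centred gave 343 and 292, and genes above the median level gave 55 and 391. With 1 array left out, receptors called ran from 0 to 3 higher and from 0 to 4 lower, and all genes from 0 to 3930 higher and from 0 to 6069 lower. The zeros came without wild type 3, 4 or 6, where 2458, 2312 and 2434 genes had an unadjusted p under 0.05. The high counts came without knockout 2 or 5, where the spread is that of wild type alone. Ddr1 turned to 0.035, 0.011 and 0.083 after cyclic loess, quantile normalisation and standardising, and Mrc2 to 0.047, 0.051 and 0.063. Itgb1 turned to 0.0066 with arrays centred and to 0.0091 without knockout 2 (-0.14 without knockout 5), and Lair1 to -0.0015 without knockout 2 (0.41 without knockout 5). The causes were not tested. No analysis paired by replicate number was made, since the groups share none, and the fit with the run as a block stands in its place. The exact permutation test could not go below p = 0.2 as the doubled one-sided share, or below 0.1 on the absolute difference, a form added after seeing the data. The number of arrays limits the precision.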

Other observations

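Exact values recurred between genes. The value of Ddr2, the same on all 5 arrays, was found in 68 other genes on at least 1 array, that of Itga1 in 104 and the lower value of Cd44 in 112. The value of the wild-type mice in Ddr1 was found in 0 other genes, and that of Itga11 in 2. On an array, the number of different values among the 19938 genes was 15461 in knockout 2, 14697 in knockout 5, 12267 in wild type 3, 11194 in wild type 4 and 10552 in wild type 6. The most frequent single value was held by 396 genes in knockout 2, 193 in knockout 5 and 167, 194 and 204 in wild types 3, 4 and 6. Pairs of arrays gave identical values in 10.8% of genes between the 2 knockout mice, in 18.0% to 30.1% between a knockout and a wild-type mouse and in 44.9% to 61.8% between wild-type mice.

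Array weights estimated by limma were 0.014 for knockout 2 and 0.0050 for knockout 5, against 6.17, 44.4 and 50.6 for wild types 3, 4 and 6, so that a weighted fit leans on wild types 4 and 6.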
